A study of Mus musculus with 24 samples.

Results

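WT basal and WT luminal cells of the mouse mammary gland were compared across all genes detected on Illumina bead arrays, with 3 arrays labelled WT basal against 3 labelled WT luminal, 6 of the 24 arrays of the series. The 6 arrays were grouped by their labels. The comparison and the gene lists were chosen with earlier results of these data known. All samples came from female mice, and the WT samples carry the genotype SNAI2+/+. The other arrays used here for reference were basal and luminal cells of mice null for Snai2 (LacZ/LacZ, an insertion into both copies of the gene, 3 arrays each) and WT stromal cells (3 arrays). Populations had been separated by the surface proteins CD49f and Epcam. The labels used here give no age and no strain and do not state whether each replicate is a different animal, and the p-values cover just the spread among these samples, which may be technical.

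The mammary epithelium has an inner luminal layer and an outer basal layer. Basal cells rest on the basement membrane, carry keratins of stratified epithelia and contract like smooth muscle to eject milk, and mammary stem cell activity is usually found among them. Luminal cells line the duct and fall into hormone-sensing cells, which carry the receptors of oestrogen, progesterone and prolactin, and progenitors that give rise to milk-secreting alveolar cells. Snai2 encodes Slug, a repressor of the Snail family known as a basal regulator that binds E-box sequences in promoters of epithelial junction genes.

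Levels are log2 intensities after background correction and quantile normalization, 1 probe per gene. A change is basal minus luminal on that scale, with the standard error (SE) of a linear model fitted to all 24 arrays with limma, and a gene passed at a Benjamini-Hochberg adjusted p below 0.05 over all genes. The 6 arrays had median raw intensities from 93.58 to 140 and from 13401 to 14724 of 25697 probes detected. WT luminal replicate 3 and WT basal replicate 3 stood apart from replicates 1 and 2 of their groups on the third principal component (9.65% of the variance), at -20.0 against 13.72 and 21.55 and at -10.72 against 34.79 and 35.67, a split that no label gives. Correlations over genes were 0.927 to 0.959 within basal and 0.942 to 0.967 within luminal arrays, and 0.843 to 0.883 between the populations.

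Of 12552 genes tested, 1904 passed (15.2%), of which basal cells had the higher level in 939 (7.48%) and luminal cells in 965 (7.69%). At least 4-fold changes were found for 236 of the basal-high and 245 of the luminal-high genes, and at least 8-fold changes for 48 and 66. The values of the populations did not overlap for 913 and 935 of the genes that passed, and for 31.5% of all genes tested. On the other population's arrays 125 of the basal-high and 159 of the luminal-high genes were detected on 0 arrays, while 610 and 581 were detected on all 3. Replicates 1 and 2 alone gave 1354 genes, 690 basal-high and 664 luminal-high. With replicate 3 alone, 1 array of each population that was assumed to vary like the other groups, 314 passed, 166 and 148.

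**Figure D1:**
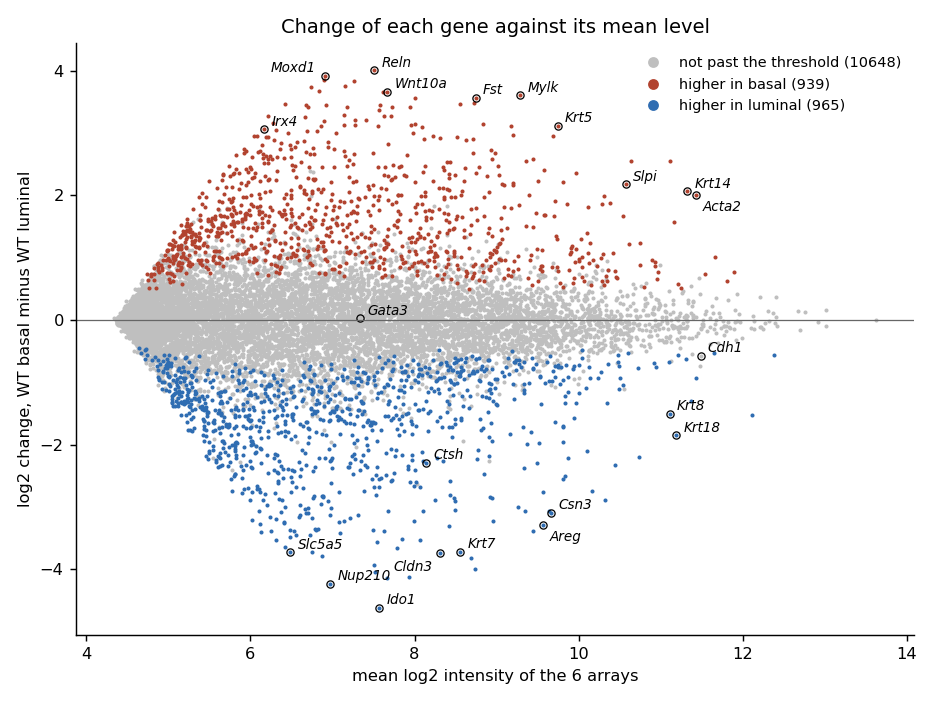
Log2 change of each of 12552 genes (y axis, WT basal minus WT luminal) against the mean log2 intensity of the 6 arrays (x axis). Red points are the 939 genes that passed higher in basal cells, blue points the 965 that passed higher in luminal cells, grey points the rest, and circles mark genes named in the text. The range of change narrows to the left, toward dim genes. Moxd1 (3.91 ± 0.47) and Nup210 (-4.24 ± 0.5) are among the genes farthest from 0.

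The populations were first checked against the genes that define them. Krt5 and Krt14, the keratin pair of basal cells, were both higher in basal cells. Krt5 had levels of 11.44, 11.21 and 11.26 on the WT basal and 7.69, 8.75 and 8.11 on the WT luminal arrays, a change of 3.12 ± 0.37 (adjusted p = 6.64e-06). Krt14 had 12.3, 12.38 and 12.38 on the WT basal and 10.06, 10.6 and 10.19 on the WT luminal arrays (2.07 ± 0.32, adjusted p = 0.000132). For both genes the 3 basal values lay above the 3 luminal values, and both were detected on all luminal arrays. WT luminal replicate 2 had the highest luminal level of both. In bulk samples, detection on an array does not show which of the sorted cells gave the signal. The simple keratins Krt8 and Krt18, which pair in luminal cells, went the other way. Krt8 had 10.09, 10.39 and 10.6 on the WT basal and 11.81, 11.72 and 12.05 on the WT luminal arrays (-1.5 ± 0.35, adjusted p = 0.00522). Krt18 had 10.13, 10.27 and 10.39 on the WT basal and 12.11, 11.98 and 12.25 on the WT luminal arrays (-1.85 ± 0.25, adjusted p = 3.37e-05). Krt8 and Krt18 were detected on all basal arrays too, and they were 2.83-fold and 3.61-fold apart. Krt7 (-3.72 ± 0.39, 13.2-fold) and Krt19 (-3.07 ± 0.29, 8.41-fold), other keratins of the ductal lining, were luminal-high too.

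Of 7 measured basal keratins 4 were higher in basal cells and 0 in luminal cells, with Krt15 at 2.95 ± 0.52 and Krt17 at 2.56 ± 0.39. Krt6a and Krt6b, keratins of activated and progenitor epithelium, were at -0.87 ± 0.51 and -1.15 ± 0.77 and did not pass. Of 7 simple keratins 4 were higher in luminal cells and 1, Krt23, was higher in basal cells. Krt23, a keratin of simple epithelia, had 8.09, 7.59 and 8.32 on the WT basal and 6.35, 6.66 and 4.94 on the WT luminal arrays (2.02 ± 0.5, adjusted p = 0.00769). Its values did not overlap, but the call was lost without WT luminal replicate 3 (adjusted p = 0.0579) and with replicates 1 and 2 alone.

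Of the surface proteins of the sort, Epcam had 0 probes and was not analysed here. Itga6, which encodes CD49f, had 9.51, 9.59 and 9.8 on the WT basal and 8.43, 7.75 and 9.08 on the WT luminal arrays, a change of 1.21 ± 0.38 (adjusted p = 0.033). All basal values were above all luminal values, which is no independent finding for a protein used in the sort, and the call was lost in 5 of 6 fits that left out 1 array (adjusted p = 0.0615 to 0.19). Cd24a, a surface protein often used to enrich luminal cells, had -0.52 ± 0.23 and did not pass. Gata3, a factor known to specify luminal cells, did not pass, with 7.41, 7.26 and 7.37 on the WT basal and 7.58, 7.14 and 7.24 on the WT luminal arrays and a change of 0.02 ± 0.27 (95% interval -0.54 to 0.59). The Gata3 ranges overlapped, while in WT stromal cells its levels were 4.9, 4.63 and 4.5. Cdh1, the epithelial cadherin, was at -0.57 ± 0.21 (adjusted p = 0.0769) and did not pass, but passed with replicates 1 and 2 alone. Kit, a receptor of luminal progenitors, and Snai2 itself had 0 probes and were not analysed here.

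**Figure D2:**
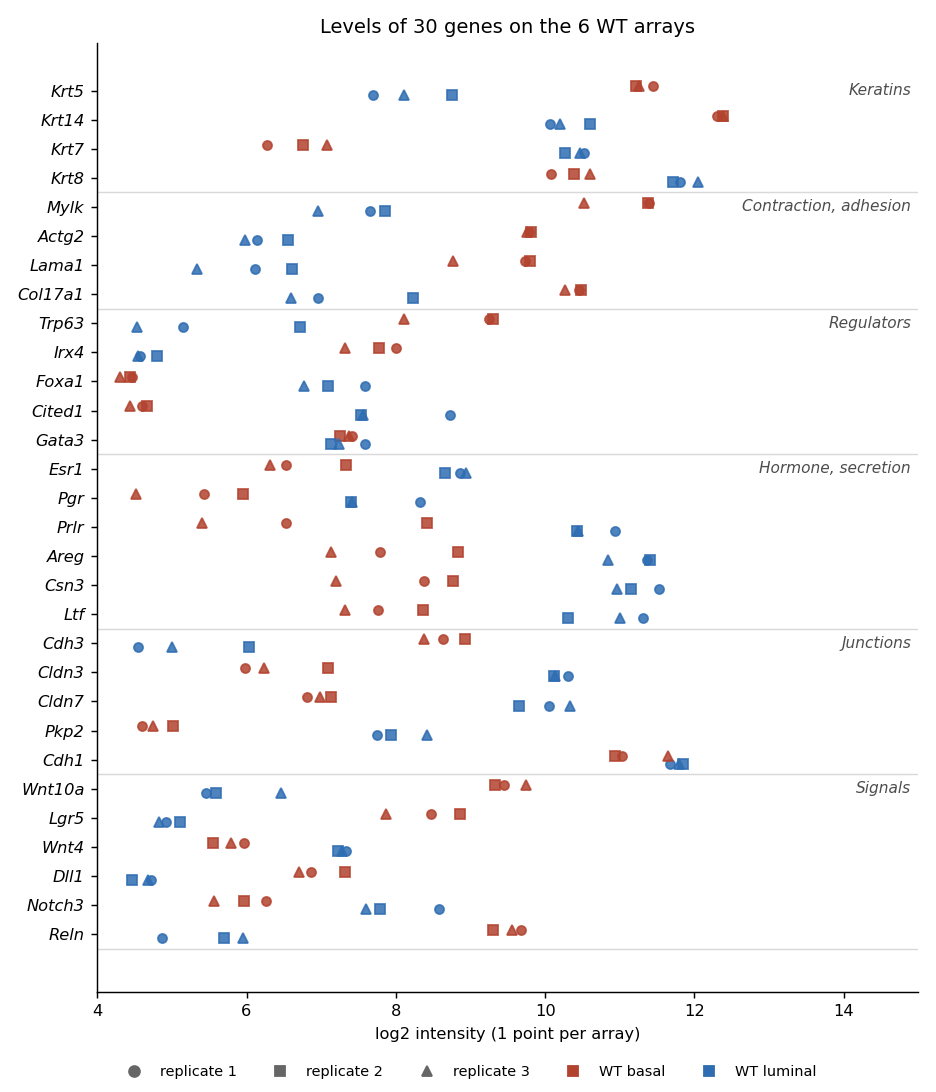
Log2 intensity of 30 genes on each of the 6 WT arrays (x axis), with basal arrays in red, luminal arrays in blue and a marker shape per replicate. Levels may be compared within a row and not between rows, since each gene has its own probe. Points of both colours overlap for Gata3 and nearly touch for Cdh1, while the other genes shown separate by population.

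Contractile genes had the highest share of basal-high members of the 34 lists. Of 29 measured smooth muscle contractile genes 22 were higher in basal cells and 0 in luminal cells, and all 29 changes were positive, with a median of 1.75 against -0.006 over all genes tested. Mylk, the kinase that activates smooth muscle myosin, had 11.38, 11.37 and 10.52 on the WT basal and 7.65, 7.85 and 6.96 on the WT luminal arrays (3.6 ± 0.54, 12.2-fold, adjusted p = 7.73e-05). Actg2, smooth muscle gamma actin, had 9.78, 9.81 and 9.76 on the WT basal and 6.14, 6.55 and 5.98 on the WT luminal arrays (3.56 ± 0.33, 11.8-fold). Neither gene overlapped between the populations, and the spread of Actg2 over the basal arrays was the narrower. Myh11, the smooth muscle myosin heavy chain (3.12 ± 0.43), Cald1, an actin-binding brake on myosin (2.91 ± 0.31), and Tagln, an actin cross-linker (2.74 ± 0.44), were higher too. Acta2, smooth muscle alpha actin and the usual myoepithelial marker, had a smaller change of 2.01 ± 0.32 for this probe, and its 4 probes gave changes from 1.85 to 3.06. Its luminal levels were 10.39, 10.78 and 10.09. Srf, the factor known to drive such genes, did not pass (0.18 ± 0.17), and its cofactor Myocd was detected on 0 of the 6 arrays. With replicates 1 and 2 alone 18 of the 29 passed, and in null cells 17, with a median of 1.58.

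Of 26 measured genes of laminins, hemidesmosomes and their integrins 11 were higher in basal cells and 0 in luminal cells. Lama1, a laminin alpha chain, had 9.73, 9.8 and 8.76 on the WT basal and 6.11, 6.61 and 5.34 on the WT luminal arrays (3.41 ± 0.46), and all basal values were above all luminal values. Col17a1, the transmembrane collagen of hemidesmosomes (3.14 ± 0.48), Itga9, an integrin of tenascin-type ligands (2.78 ± 0.32), and Lamb3, a laminin chain of hemidesmosomes (2.68 ± 0.26), followed. Lamb1 and Lamc1, the chains that join Lama1 in a trimer, were at 1.63 ± 0.33 and 1.64 ± 0.25 and passed. Itgb1 and Itgb4, the beta chains that partner CD49f, were at 0.35 ± 0.19 and 0.87 ± 0.3 and did not pass.

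Matrix genes went the same way. Of 66 measured collagens, proteoglycans and matricellular proteins 26 were higher in basal and 2 in luminal cells. Col4a1 and Col4a2, the main collagen IV chains of basement membranes, were at 2.01 ± 0.23 and 2.53 ± 0.31, Col18a1, which carries endostatin, at 3.12 ± 0.35, and Col7a1, the anchoring fibril collagen, at 3.0 ± 0.35. Postn, a matricellular protein, had 8.03, 7.5 and 7.97 on the WT basal and 4.64, 4.87 and 4.87 on the WT luminal arrays and did not overlap. The fibrillar collagens of fibroblasts did not pass, with Col1a1 at 0.02 ± 0.34, Col1a2 at 0.04 ± 0.37 and Col3a1 at -0.27 ± 0.36. The luminal-high members were Spp1, the phosphoprotein osteopontin of milk (-3.3 ± 0.84), and Dcn, the small proteoglycan decorin (-0.93 ± 0.26). The Dcn call was lost without any of 3 arrays (adjusted p = 0.0574 to 0.084) and that of Spp1 without WT basal replicate 3 (adjusted p = 0.0518).

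Among 26 measured regulators of the basal lineage 12 were higher in basal and 1 in luminal cells. Trp63, the p63 factor needed for basal identity, had 9.25, 9.29 and 8.11 on the WT basal and 5.15, 6.72 and 4.53 on the WT luminal arrays (3.41 ± 0.46, adjusted p = 3.12e-05). WT luminal replicate 2 had the highest luminal level of Trp63, still below all basal values. Irx4, an Iroquois homeobox factor, had basal levels of 8.0, 7.77 and 7.32, was detected on 0 luminal arrays, which gives a difference of at least 7.17-fold (adjusted p = 1.15e-08). "At least" sets the basal mean against, per luminal array, the higher of the probe's own value and the dimmest detected signal. Id4, an inhibitor of basic helix-loop-helix factors, was at 3.21 ± 0.39, Bnc1, a zinc finger protein of stratified epithelia, at 2.02 ± 0.35, and Tead1, the DNA-binding partner of the Yap coactivators, at 1.86 ± 0.27. Zeb1, Zeb2 and Twist2, factors of mesenchymal cells, did not pass (-0.12 ± 0.46, 0.45 ± 0.42 and 0.01 ± 0.38). The luminal-high member was Meis1, a homeobox factor (-1.67 ± 0.54, call lost in 4 of 6 fits without 1 array with adjusted p = 0.0602 to 0.224).

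Among 42 regulators of the luminal lineage 15 were higher in luminal and 4 in basal cells. Foxa1, a pioneer factor for the oestrogen receptor, had luminal levels of 7.59, 7.09 and 6.76 and was detected on 0 basal arrays (at least 4.71-fold, adjusted p = 3.65e-05). Cited1, a coactivator of that receptor, had luminal levels of 8.73, 7.54 and 7.56 and was also detected on 0 basal arrays (at least 8.18-fold). Both factors separate the populations as presence against background. Ehf, an epithelial Ets factor, was at -2.86 ± 0.44, Grhl1, a grainyhead factor, at -2.38 ± 0.48, and Esrp2, an epithelial splicing regulator, at -1.83 ± 0.26. Elf5, the Ets factor of alveolar progenitors, had 5.2, 6.62 and 4.58 on the WT basal and 8.89, 8.9 and 7.07 on the WT luminal arrays. It passed (-2.82 ± 0.85, adjusted p = 0.0284), with WT basal replicate 2 and WT luminal replicate 3 close to each other, and lost the call in 4 of 6 fits without 1 array (adjusted p = 0.083 to 0.118). The 4 members higher in basal cells were Bcl11b, a zinc finger factor (at least 4.33-fold, detected on 0 luminal arrays), Id2 (1.2 ± 0.32), Cebpb (1.07 ± 0.32) and Foxp1 (1.05 ± 0.27), and the calls of Id2 and Cebpb were lost without 1 array (adjusted p = 0.0661 to 0.0781 and 0.0809 to 0.158).

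Hormone-sensing genes had the highest share of luminal-high members of the 34 lists. Of 27 measured 19 were higher in luminal cells and 0 in basal cells, with a median of -2.14. Esr1, the oestrogen receptor, had 6.54, 7.33 and 6.31 on the WT basal and 8.86, 8.66 and 8.94 on the WT luminal arrays (-2.09 ± 0.25, adjusted p = 7.58e-06), and its 2 probes gave changes of -2.15 and -2.09. Pgr, the progesterone receptor, had 5.44, 5.95 and 4.52 on the WT basal and 8.32, 7.4 and 7.41 on the WT luminal arrays (-2.41 ± 0.41, adjusted p = 0.000267). Prlr, the prolactin receptor, had 6.53, 8.41 and 5.4 on the WT basal and 10.93, 10.43 and 10.44 on the WT luminal arrays (-3.82 ± 0.73, 14.1-fold, adjusted p = 0.000931). None of the 3 receptors overlapped between the populations, and WT basal replicate 2 had the highest basal level of each. Areg, the epidermal growth factor family ligand that oestrogen induces, was at -3.29 ± 0.55, and Stc2, a secreted glycoprotein, at -3.01 ± 0.57. Tnfsf11, the RANK ligand that progesterone induces, was detected on 0 basal arrays, with luminal levels of 6.35, 8.32 and 5.62. The spread over luminal arrays was wide, and its call (adjusted p = 0.046) was lost in 5 of 6 fits without 1 array (adjusted p = 0.0708 to 0.282). Greb1, an oestrogen response gene, was detected on 0 of the 6 arrays. In bulk samples, fewer hormone-sensing cells and less RNA per cell cannot be told apart.

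Genes of luminal progenitors and of secretion were also on the luminal side. Of 23 measured progenitor genes 12 were higher in luminal and 1 in basal cells. Aldh1a3, a retinaldehyde dehydrogenase, had 5.31, 5.67 and 5.4 on the WT basal and 8.83, 8.2 and 9.09 on the WT luminal arrays (-3.24 ± 0.3, adjusted p = 6.38e-07), with the populations far apart on all arrays. Cd14, the lipopolysaccharide co-receptor, was at -3.14 ± 0.56, and Ltf, the iron-binding milk protein lactoferrin, at -3.06 ± 0.44. Of 20 milk genes 9 were higher in luminal cells and 0 in basal cells, among them Btn1a1, a coat protein of milk fat globules (-3.23 ± 0.73), and Csn3, kappa-casein. Csn3 had 8.38, 8.77 and 7.2 on the WT basal and 11.52, 11.15 and 10.97 on the WT luminal arrays (-3.1 ± 0.56), while Csn2, beta-casein, was at -1.25 ± 1.13 and Lalba, alpha-lactalbumin, at -0.76 ± 0.57, and neither passed.

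Of 37 innate defence genes 11 were higher in luminal and 2 in basal cells. Ido1, an enzyme that degrades tryptophan, had the largest luminal-high change of the genes tested, with 4.71, 5.72 and 5.36 on the WT basal and 10.42, 9.38 and 9.85 on the WT luminal arrays (-4.62 ± 0.61, 24.6-fold, adjusted p = 2.43e-05). Tph1, which uses tryptophan to make serotonin, was luminal-high too (-3.64 ± 0.8). Hp, haptoglobin (-2.83 ± 0.39), Muc1, a membrane mucin (-2.36 ± 0.23), and Wfdc18, a small secreted protein (-2.56 ± 0.33), followed. The progenitor list held 1 basal-high gene, Slpi, a secreted leukocyte protease inhibitor that is also on the defence list. Slpi had 11.81, 11.8 and 11.38 on the WT basal and 9.24, 9.92 and 9.3 on the WT luminal arrays (2.18 ± 0.45, adjusted p = 0.00161), with no overlap and detection on all 6 arrays. The other basal-high defence gene was Chil1, a chitinase-like secreted protein (1.82 ± 0.55), whose call was lost in 4 fits without 1 array (adjusted p = 0.0694 to 0.111). Lcn2, lipocalin 2, did not pass (-0.09 ± 0.34).

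Junction genes split by type. Of 37 measured tight junction and apical polarity genes 16 were higher in luminal and 2 in basal cells. Cldn3 had 5.98, 7.1 and 6.24 on the WT basal and 10.3, 10.11 and 10.13 on the WT luminal arrays (-3.74 ± 0.5, 13.4-fold). Cldn4 had 4.74, 5.06 and 4.7 on the WT basal and 8.08, 7.4 and 9.38 on the WT luminal arrays (-3.46 ± 0.53, 11-fold), and Cldn7 was at -3.04 ± 0.3. These claudins, which seal the space between cells, did not overlap between the populations. Ocln, occludin (at least 3.97-fold), and Tjp3, a scaffold (at least 3.09-fold), were detected on 0 basal arrays. Marveld3, a membrane protein related to occludin (-2.33 ± 0.33), Cldn6 (-2.0 ± 0.35) and Rab25, a small GTPase of apical recycling (-2.36 ± 0.36), also passed on the luminal side. Tjp1, a more widely expressed scaffold, did not pass (0.13 ± 0.22). The basal-high members were Jam2 (1.13 ± 0.34) and Cldn12 (0.63 ± 0.21), and both calls were lost without 1 array (adjusted p = 0.052 to 0.165 and 0.075 to 0.263). With the replicate number as a block Cldn12 had an adjusted p of 0.0528. With replicates 1 and 2 alone 11 members passed on the luminal and 2 on the basal side, and with median scaling 14 and 0.

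Of 22 cadherin, catenin and desmosome genes 5 were higher in basal and 4 in luminal cells, and family members took opposite sides. Pkp1 and Pkp2 are plaque proteins of the desmosome. Pkp1 had 8.66, 8.64 and 9.21 on the WT basal and 6.4, 6.64 and 7.44 on the WT luminal arrays (2.01 ± 0.34), and Pkp2 had 4.6, 5.02 and 4.74 on the WT basal and 7.75, 7.94 and 8.41 on the WT luminal arrays (-3.25 ± 0.28). The order of the populations was thus reversed between these relatives, with no overlap for either. The nectins Nectin1 (1.44 ± 0.26) and Nectin2 (-1.22 ± 0.29) also went opposite ways. Cdh3, placental cadherin, was basal-high at 3.45 ± 0.43, with its 4 probes giving changes from 1.14 to 3.45, and its binding partners Ctnnb1 and Ctnna1 did not pass (0.11 ± 0.18 and 0.13 ± 0.16). The call of Nectin2 was lost with replicates 1 and 2 alone.

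The promoters of these junction and keratin genes were read from RefSeq (GRCm38.p6) to show where the Snail-family E-box, CAGGTG on either strand, lies relative to the start of transcription. The stretches below are the 140 bases before the start, 5′ to 3′ in the direction of transcription, with the motif in capitals, and CACCTG is the same motif on the other strand. They were chosen as luminal-high junction and simple keratin genes whose stretch holds it, with the basal-high Krt5 beside them as a counterexample.
Cldn4 (chr5:134946935-134947074, minus strand): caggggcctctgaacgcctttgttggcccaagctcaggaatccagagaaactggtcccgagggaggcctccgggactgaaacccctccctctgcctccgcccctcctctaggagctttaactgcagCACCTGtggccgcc
Rab25 (chr3:88548280-88548419, minus strand): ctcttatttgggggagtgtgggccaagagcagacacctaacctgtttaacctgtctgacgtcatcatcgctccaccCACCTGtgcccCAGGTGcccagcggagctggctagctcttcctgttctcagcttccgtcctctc
Tjp3 (chr10:81291582-81291721, minus strand): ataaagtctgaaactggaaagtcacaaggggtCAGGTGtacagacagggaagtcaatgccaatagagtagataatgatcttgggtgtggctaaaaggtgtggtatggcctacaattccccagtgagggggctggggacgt
Cldn6 (chr17:23679225-23679364, plus strand): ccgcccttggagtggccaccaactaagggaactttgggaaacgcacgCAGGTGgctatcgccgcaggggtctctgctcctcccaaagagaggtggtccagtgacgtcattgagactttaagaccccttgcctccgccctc
Krt7 (chr15:101412263-101412402, plus strand): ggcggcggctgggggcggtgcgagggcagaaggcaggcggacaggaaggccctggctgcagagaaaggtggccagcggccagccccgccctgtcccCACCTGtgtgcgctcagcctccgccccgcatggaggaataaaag
Krt8 (chr15:102004343-102004482, minus strand): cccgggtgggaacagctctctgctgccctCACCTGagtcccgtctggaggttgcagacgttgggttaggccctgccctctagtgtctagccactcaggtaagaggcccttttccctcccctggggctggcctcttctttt
Krt5 (chr15:101712906-101713045, minus strand): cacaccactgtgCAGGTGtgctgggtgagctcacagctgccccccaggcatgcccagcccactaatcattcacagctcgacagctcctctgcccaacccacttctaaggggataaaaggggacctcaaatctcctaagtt
Counted from the start, the first base of the motif lies at -14 in Cldn4, at -64 and -53 in Rab25, at -108 in Tjp3, at -93 in Cldn6, at -44 in Krt7, at -111 in Krt8 and at -128 in Krt5.

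Windows of 300 bases, 250 before and 50 after the start, were found for 9498 of the 12552 genes, and for genes with several windows the first listed was used. CAGGTG was in 17.9% of all 9498 windows, in 38.3% of the 162 windows of luminal-high genes at least 4-fold apart (62 windows) and in 17.7% of the 158 windows of basal-high genes at least 4-fold apart (28 windows). By size of change the share was 37.9% at -2 or below, 21.4% from -2 to -1, 17.0% within 0.5 of 0 and 17.7% at 2 or above. Of 27 tight junction genes with a window 14 held it (51.9%), members that did not pass included. Among the 250 bases before the start alone the shares were 15.6% of all, 35.2% of luminal-high and 13.9% of basal-high genes at least 4-fold apart. The median GC content of the windows was 60.3% for all, 59.8% for the luminal-high and 61.3% for the basal-high genes at least 4-fold apart. Holders among the luminal-high genes at least 4-fold apart included Krt7, Cldn4, Areg, Foxa1, Pgr, Ltf and Elf5, and Cldn3, whose motif lies after the start. The 100 luminal-high genes at least 4-fold apart without it included Cldn7, Esr1, Prlr, Cited1, Aqp5 and Notch3. A match shows that the letters are there, not that a factor binds.

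**Figure D3:**
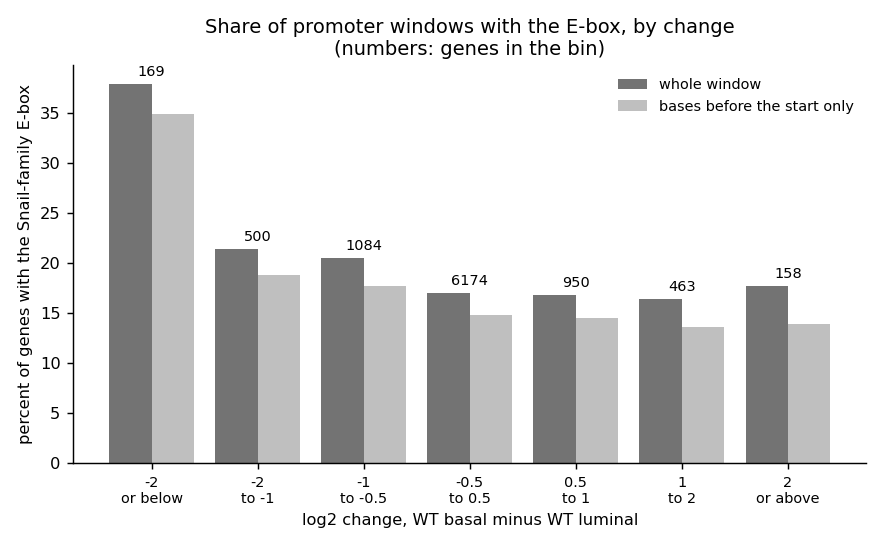
Percent of genes whose promoter window holds the Snail-family E-box (y axis) in 7 bins of log2 change (x axis, WT basal minus WT luminal), for the whole window (dark) and the bases before the start (light). The number above each pair of bars is the number of genes in the bin. The bin at -2 or below stands at 37.9%, and the other bins lie between 16.4% and 21.4%.

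Other motifs were searched in the same windows on both strands. GGAATG, read by Tead factors, was in 12.4% of all windows and in 9 of 24 windows of contractile genes (37.5%). Among genes at least 4-fold apart it was in 15.2% of basal-high and 21.0% of luminal-high windows. Tight junction genes held it in 22.2% of their windows. The CArG box of SRF was in 1.38% of all windows and in 3 of the 24 (12.5%), those of Cnn2, Vcl and Srf. Of these only Cnn2, a calponin, passed (1.65 ± 0.24), and its motif lies at -56 in the stretch below, shown with the motif in capitals.
Cnn2 (chr10:79988460-79988599, plus strand): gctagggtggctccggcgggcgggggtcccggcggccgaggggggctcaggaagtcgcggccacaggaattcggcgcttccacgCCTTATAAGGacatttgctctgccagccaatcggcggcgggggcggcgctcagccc
AGATAA, read by Gata factors, was in 6.65% of luminal-high and 6.91% of all windows. TGTTTAC, read by forkhead factors, was in 3.88% of luminal-high and 2.5% of all windows, and TGACGTCA, read by Creb factors, in 3.6% and 2.99%. These luminal-high shares cover genes that passed at any size of change. At least 4-fold apart, AGATAA was in 6.17% of luminal-high and 9.49% of basal-high windows. For TGTTTAC these shares were 2.47% and 4.43%, and for TGACGTCA 3.09% and 1.27%.

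In the Notch pathway, which acts between touching cells, 5 of 34 measured genes were higher in basal and 4 in luminal cells. Over all genes tested 7.48% were basal-high and 7.69% luminal-high, the shares to set beside this list and those of the next paragraphs. The ligand Dll1 had basal levels of 6.86, 7.32 and 6.7 and was detected on 0 luminal arrays (at least 4.31-fold, adjusted p = 6.38e-07). The ligands Jag2 (at least 2.15-fold) and Jag1 (1.23 ± 0.29) were basal-high too, though Jag1 did not pass with replicates 1 and 2 alone. The receptor Notch3 was luminal-high, with 6.26, 5.97 and 5.56 on the WT basal and 8.58, 7.79 and 7.61 on the WT luminal arrays (-2.06 ± 0.41, adjusted p = 0.0012), as was Adam10, the protease that cuts Notch receptors (-1.58 ± 0.29). Notch1 (-0.51 ± 0.35) and Notch2 (-0.08 ± 0.3) did not pass, nor did the targets Hes1 (-1.02 ± 0.39) and Hey1 (-0.66 ± 0.59). Replicates 1 and 2 alone left 2 basal-high and 2 luminal-high Notch genes.

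In the Wnt pathway 13 of 55 measured genes were higher in basal and 3 in luminal cells. The ligand Wnt10a had 9.44, 9.33 and 9.74 on the WT basal and 5.46, 5.59 and 6.46 on the WT luminal arrays (3.67 ± 0.49, 12.7-fold, adjusted p = 2.83e-05). Lgr5, the R-spondin receptor that marks stem cells in several epithelia, had 8.48, 8.87 and 7.87 on the WT basal and 4.93, 5.11 and 4.83 on the WT luminal arrays (3.45 ± 0.58, adjusted p = 0.000249). Neither overlapped between the populations. The receptors Fzd7 (2.43 ± 0.3), Fzd1 (2.26 ± 0.34) and Fzd3 (1.77 ± 0.29) were basal-high. So were the secreted inhibitor Wif1 (3.27 ± 0.36) and the secreted protein Dkk3 (3.09 ± 0.51). The pathway's feedback target Axin2 (1.77 ± 0.53) passed but lost the call in 3 fits without 1 array (adjusted p = 0.0575 to 0.186). On the luminal side were Dvl1, an adaptor below the receptors (-0.79 ± 0.23, call lost in 3 of 6 fits without 1 array with adjusted p = 0.0624 to 0.124), and the ligands Wnt4 (-1.51 ± 0.33), which progesterone induces, and Wnt7b (-2.3 ± 0.69), and Wnt7b lost its call in 4 of 6 fits without 1 array (adjusted p = 0.055 to 0.138).

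Among 18 ErbB genes 4 were higher in basal and 4 in luminal cells. The ligand Areg had 7.78, 8.83 and 7.13 on the WT basal and 11.36, 11.4 and 10.84 on the WT luminal arrays (-3.29 ± 0.55, 9.76-fold, adjusted p = 0.000268). Its receptor Egfr had 8.7, 8.73 and 8.84 on the WT basal and 7.14, 7.86 and 7.95 on the WT luminal arrays (1.11 ± 0.36, adjusted p = 0.0411). Ligand and receptor thus had their higher levels in opposite populations, but the call of Egfr was lost in 5 of 6 fits without 1 array (adjusted p = 0.0621 to 0.203), and its 4 probes gave changes from 0.34 to 1.93. Lrig1, a brake on ErbB receptors, was basal-high (1.45 ± 0.26). Nrg1, a ligand of other ErbB receptors, had 6.83, 7.12 and 9.88 on the WT basal and 5.48, 4.5 and 6.74 on the WT luminal arrays and did not pass (2.37 ± 0.88, adjusted p = 0.0766), but passed with the replicate number as a block (adjusted p = 0.000718). With replicates 1 and 2 alone 2 ErbB genes were basal-high and 3 luminal-high.

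Of 46 TGF-beta, activin and BMP genes 17 were higher in basal and 2 in luminal cells. The antagonist Fst, follistatin, had 10.27, 10.54 and 10.77 on the WT basal and 6.41, 6.77 and 7.71 on the WT luminal arrays (3.56 ± 0.36, 11.8-fold, adjusted p = 1.16e-06), while Inhba, an activin chain that it binds, did not pass (0.07 ± 0.54). The ligand Bmp7 (2.61 ± 0.3), the co-receptor Tgfbr3 (2.45 ± 0.35), the receptor Tgfbr1 (1.5 ± 0.28) and the matricellular target Ccn2 (2.95 ± 0.54) were basal-high. Bmpr1b, a BMP receptor, was luminal-high and was detected on 0 basal arrays (at least 2.78-fold), as was Bmp3 (at least 1.82-fold), whose call was lost without WT luminal replicate 1 (adjusted p = 0.0613).

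Of 51 measured guidance genes, known from growing nerves, 14 were higher in basal cells and 1, the semaphorin Sema4f, in luminal cells (-0.83 ± 0.26, call lost in 3 of 6 fits without 1 array with adjusted p = 0.0999 to 0.267). Reln, a secreted matrix glycoprotein, had the largest basal-high change of the genes tested, with 9.68, 9.29 and 9.56 on the WT basal and 4.87, 5.7 and 5.95 on the WT luminal arrays (4.01 ± 0.37, 16.1-fold, adjusted p = 6.38e-07). Its receptor Vldlr (-0.32 ± 0.3) did not pass, and its receptor Lrp8 was detected on 0 of the 6 arrays. Slit2 (2.61 ± 0.43) and its receptor Robo1 (1.63 ± 0.33) were both basal-high, and so were Ephb1 (3.27 ± 0.4), Sema5a (3.26 ± 0.46), Sema6d (2.93 ± 0.35) and Sema3c (2.3 ± 0.42).

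Of 62 chemokine and cytokine genes 9 were higher in basal and 7 in luminal cells. Cxcl12 had 10.54, 10.21 and 9.4 on the WT basal and 7.09, 8.34 and 6.69 on the WT luminal arrays (2.68 ± 0.37), and Cxcl14 was at 2.96 ± 0.29, while the Cxcl12 receptor Cxcr4 did not pass (-0.3 ± 0.41), and the receptor Ackr3 was detected on 0 of the 6 arrays. The cytokine Lif was luminal-high, with 5.55, 4.83 and 6.65 on the WT basal and 7.54, 8.32 and 9.03 on the WT luminal arrays (-2.62 ± 0.58, adjusted p = 0.00343), and its receptor Lifr was basal-high, with 8.83, 8.56 and 8.12 on the WT basal and 7.47, 6.22 and 7.27 on the WT luminal arrays (1.52 ± 0.29, adjusted p = 0.00081). Neither overlapped, so the population high for the ligand was low for the receptor. Tnfrsf11a, the receptor RANK of the luminal-high Tnfsf11, was at 1.99 ± 0.78 (adjusted p = 0.0993) and did not pass. Cxcl15, a chemokine, was luminal-high at -4.04 ± 0.54, and its basal levels of 4.57, 7.01 and 4.93 had WT basal replicate 2 apart from the others. In replicates 1 and 2 alone 5 members were basal-high and 7 luminal-high.

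Of 24 genes of the FGF and IGF axes 5 were higher in basal and 0 in luminal cells. Among them were the binding proteins Igfbp2 (3.74 ± 0.4) and Igfbp3 (3.12 ± 0.36) and the ligand Fgf1 (2.37 ± 0.37). The 2 probes of Igfbp2 gave changes of 0.907 and 3.738. The receptors Igf1r (0.49 ± 0.22), Fgfr1 (0.46 ± 0.3) and Fgfr2 (-0.38 ± 0.46) did not pass. With the replicate number as a block 6 were higher in basal and 2 in luminal cells. Of 11 hedgehog and parathyroid hormone-like genes Gas1, a hedgehog co-receptor (3.03 ± 0.69), and Pthlh, the parathyroid hormone-like ligand (at least 1.55-fold, detected on 0 luminal arrays), were basal-high, while their partners Ptch1 (0.23 ± 0.34) and Pth1r (0.24 ± 0.29) did not pass.

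Genes of transport and of proteolysis passed on both sides, beside 7.48% of all genes basal-high and 7.69% luminal-high. Of 63 channel, pump and carrier genes 19 were higher in luminal and 10 in basal cells. Aqp5, a water channel of secretory epithelia, had 7.02, 7.65 and 5.53 on the WT basal and 11.21, 10.71 and 10.27 on the WT luminal arrays (-4.0 ± 0.64, 16-fold). Slc5a5, the iodide carrier of thyroid and breast, had 4.38, 5.1 and 4.4 on the WT basal and 8.35, 7.91 and 8.8 on the WT luminal arrays (-3.73 ± 0.42, 13.2-fold). Both were clear of overlap, and Slc5a5 was detected on 1 of 3 basal arrays. Slc1a1, a glutamate carrier (-3.93 ± 0.44), Slc28a3, a nucleoside carrier (-3.56 ± 0.49), and Scnn1b, a subunit of the epithelial sodium channel (-3.37 ± 0.62), were luminal-high. On the basal side stood Kcnmb1, a subunit of the potassium channel of smooth muscle (at least 3.96-fold), and Slc6a6, the taurine carrier (1.66 ± 0.23). Outside the list, Slc8a1, a sodium and calcium exchanger, was basal-high at 3.46 ± 0.33. Clca1 was basal-high by its main probe (1.76 ± 0.46), but its other probe gave -1.98, and the call was lost without WT basal replicate 2 or WT luminal replicate 3 (adjusted p = 0.0747 to 0.0867).

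Of 60 proteases and inhibitors 9 were higher in basal and 8 in luminal cells. Serine proteases passed on both sides. Prss23 (1.74 ± 0.31) and Plau, the urokinase that activates plasminogen (1.78 ± 0.44), were basal-high, and Plau lost its call without WT luminal replicate 1 (adjusted p = 0.0658). Luminal-high were Prss8 at -1.7 ± 0.32, Prss22 at -1.97 ± 0.42, Klk11, detected on 0 basal arrays, at least 3.76-fold higher, and, outside the list, Tmprss2 at -4.14 ± 0.59. Ctsh, a lysosomal cathepsin, had 6.76, 7.26 and 6.97 on the WT basal and 9.49, 9.15 and 9.23 on the WT luminal arrays (-2.29 ± 0.16, adjusted p = 3.22e-08), a tight change without overlap. The matrix proteases Mmp2 (2.07 ± 0.37) and Adamts1 (2.2 ± 0.4) and the inhibitor Serpina3n (2.23 ± 0.25) were basal-high. Of 45 retinoid, steroid and lipid genes 8 were higher in luminal and 2 in basal cells, with Cyp1b1, an oxidase of steroids, on the basal side (2.06 ± 0.48). Scd1, which desaturates fatty acids, was luminal-high (-1.65 ± 0.28). With the replicate number as a block 5 of the 45 were basal-high and 10 luminal-high. Of 23 S100 and annexin genes 5 were luminal-high, led by S100g, the calcium-binding protein calbindin D9k (-3.0 ± 0.56), and Anxa6 alone was basal-high (0.98 ± 0.24). With replicates 1 and 2 alone the luminal-high counts were 5 of the 60 proteases and inhibitors, 5 of the 45 and 3 of the 23.

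Of 65 Hox, Sox, Forkhead, Irx and Tbx factors 7 were higher in basal and 5 in luminal cells, shares near the 7.48% and 7.69% of all genes. Foxq1, a forkhead factor, had luminal levels of 7.78, 7.49 and 8.19 and was detected on 0 basal arrays (at least 7.52-fold). Of 28 replication and mitosis genes 2 were basal-high (7.14%), a share near the 7.48% of all genes, and 0 luminal-high. Ccnd2, a D-type cyclin, had 7.87, 8.19 and 7.59 on the WT basal and 5.37, 4.85 and 5.01 on the WT luminal arrays (2.81 ± 0.37, adjusted p = 2.08e-05) with no overlap. The other was Pcna, the sliding clamp of DNA replication (0.88 ± 0.26, call lost in 4 of 6 fits without 1 array with adjusted p = 0.0692 to 0.143). The relative of Ccnd2, Ccnd1, was at -0.49 ± 0.41 and Ccnd3 at -0.19 ± 0.18, and neither passed. Of 39 respiratory chain and ATP synthase genes 0 passed by limma, and 36 had negative changes, with a median of -0.28. Their values did not overlap for 10 of 39, all with luminal above, against 16.3% of all genes with luminal above.

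**Figure D4:**
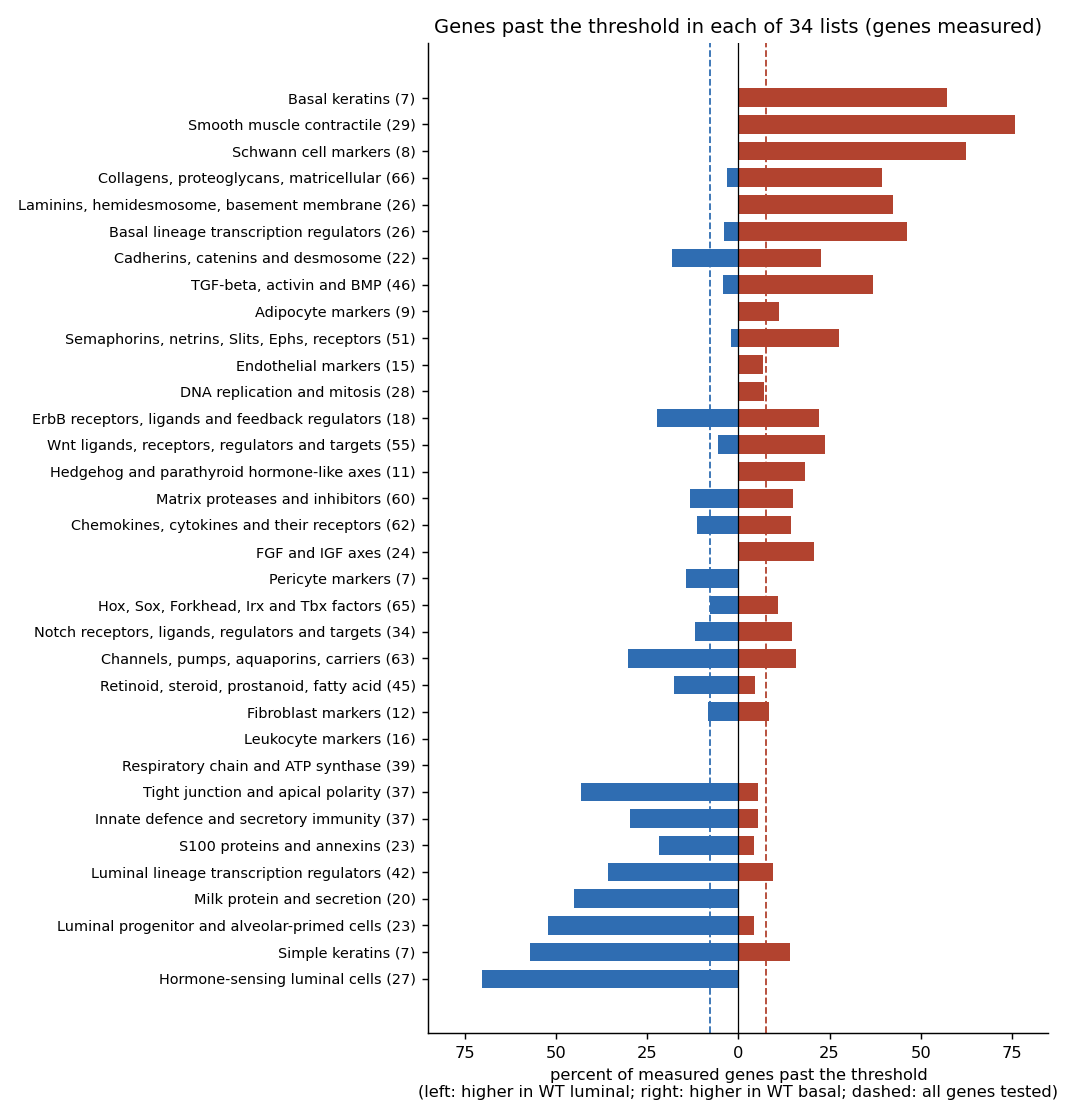
Percent of the measured genes of 34 lists that passed higher in WT basal cells (red, to the right) or higher in WT luminal cells (blue, to the left), with the lists ordered by their median change and the number of genes measured in brackets. Dashed lines mark 7.48% and 7.69%, the shares of all genes tested. Contractile genes reach 22 of 29 on the basal side and hormone-sensing genes 19 of 27 on the luminal side.

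Markers of cells other than epithelium were measured for the same arrays. For comparison, 7.48% of all genes tested were basal-high and 7.69% luminal-high. Of 12 fibroblast markers Fbn1, a microfibril protein, was higher in basal cells (1.45 ± 0.45, call lost in 5 of 6 fits without 1 array with adjusted p = 0.0562 to 0.149) and Dcn in luminal cells. Their mean level was 7.43 to 7.94 in basal, 7.65 to 7.83 in luminal and 11.02 to 11.24 in WT stromal arrays. Of 15 endothelial markers 1, Flt1, was basal-high (1.01 ± 0.31), and the call was lost in 4 fits without 1 array (adjusted p = 0.052 to 0.175). The mean endothelial level was 6.99, 6.51 and 5.32 in basal and 6.02, 6.2 and 5.48 in luminal arrays, so replicate 3 was lowest in both. Cdh5 and Kdr, defining endothelial genes, were detected on 2 and 1 basal arrays and on 0 luminal arrays. Of 16 leukocyte markers 0 passed by limma, with Csf1r detected on 0 of the 6 arrays and Ptprc on 2. Of 7 pericyte markers only Notch3 passed, and Pdgfrb was detected on 0 of the 6 arrays. Of 9 adipocyte markers Lep alone passed (at least 2.02-fold, detected on 0 luminal arrays), and Adipoq was detected on 0 of the 6 arrays. The part of these cells in the basal-luminal changes was not tested.

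Schwann cell markers, genes of the cells that wrap nerve fibres, were basal-high for 5 of 8. Cdh19, a cadherin of that lineage, had basal levels of 6.27, 6.45 and 6.3 and was detected on 0 luminal arrays (at least 2.8-fold). It was detected on all 3 basal arrays. Cnp, an enzyme of myelin, was at 1.49 ± 0.32. Ngfr, the low-affinity neurotrophin receptor, which myoepithelial cells are also known to express, was at 2.47 ± 0.44. Mbp, a myelin protein, was at -1.32 ± 0.46 by its main probe and did not pass, though it passed with the replicate number as a block (adjusted p = 0.0217), and its 3 probes gave changes from -1.32 to 1.71. S100b was detected on 0 of the 6 arrays. The mean level of the 8 markers was 6.4 to 6.62 in basal, 5.29 to 5.53 in luminal and 5.55 to 5.97 in stromal arrays. Their part in the other basal-high genes was not tested.

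Replicates of a population differed most along the split between replicate 3 and the others. Psat1, an enzyme of serine synthesis, had 6.28, 6.21 and 9.15 on the WT basal and 5.71, 6.07 and 8.73 on the WT luminal arrays, so replicate 3 was far higher in both populations while the populations overlapped (0.38 ± 0.93, adjusted p = 0.875). Nfatc2, a calcium-regulated factor, had 6.37, 6.31 and 8.33 on the WT basal and 5.0, 5.29 and 8.28 on the WT luminal arrays. Ptprb, a phosphatase of endothelial cells, ran the other way, with 8.58, 7.79 and 5.23 on the WT basal and 7.26, 7.48 and 5.18 on the WT luminal arrays. These 3 genes did not pass between the populations. Sox17, also known from endothelial cells, had 8.56, 7.91 and 5.39 on the WT basal and 6.46, 6.94 and 5.81 on the WT luminal arrays, and Robo4, an endothelial receptor, had 8.75, 8.71 and 4.69 on the WT basal and 6.97, 7.84 and 6.12 on the WT luminal arrays. The sort or processing of replicate 3 is not described in the sources used here. Foxi1, a forkhead factor of ionocytes, was detected on 0 basal arrays and had luminal levels of 8.42, 7.16 and 5.34, and it passed with replicates 1 and 2 alone and with the replicate number as a block (adjusted p = 0.0221) but not with all arrays (-2.4 ± 0.84, adjusted p = 0.0609).

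The basal-luminal change was measured again on the 3 null basal and 3 null luminal arrays, which share no array with the WT comparison. In null cells 1421 genes passed (11.3%), 762 with basal above luminal (6.07%) and 659 with luminal above basal (5.25%). Of the 939 genes basal-high in WT cells 914 had the same sign in null cells and 564 passed there too (60.1% of the WT and 74.0% of the null basal-high genes). Of the 965 luminal-high genes 916 had the same sign and 476 passed (49.3% of the WT and 72.2% of the null luminal-high genes). Their median changes in null cells were 1.19 and -0.96, beside 1.44 and -1.40 in WT cells, where the same arrays had chosen them. Reln was at 3.33 ± 0.37 in null cells, Mylk at 3.71 ± 0.54, Krt5 at 3.0 ± 0.37, Trp63 at 3.64 ± 0.46, Esr1 at -3.15 ± 0.25 and Prlr at -3.64 ± 0.73.

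The difference between the genotypes was tested itself, as null minus WT. It passed for 21 of 12552 genes (0.167%), 18 of them positive, and 542 had an unadjusted p below 0.05 (4.32%). Without 1 array the count was 9 to 20, and 5 with median scaling. Bex4, a small X-linked protein, was luminal-high in WT cells, with luminal levels of 6.62, 6.98 and 6.22 and detection on 0 basal arrays, and basal-high in null cells, with 9.22, 8.7 and 9.07 in null basal and 7.66, 7.19 and 6.51 in null luminal arrays. Bex1 had a change of -2.58 ± 0.37 in WT and 1.08 ± 0.37 in null cells, where it did not pass (adjusted p = 0.0694). Its 2 probes gave WT changes of -2.58 and -2.46. Pkp2 changed by -3.25 in WT cells, while in null cells it was 7.92, 7.95 and 8.1 in basal and 8.05, 8.21 and 8.54 in luminal arrays, so the populations overlapped. Cldn7 was at -3.04 ± 0.3 in WT and -0.4 ± 0.3 in null cells, and Foxq1 was at -0.37 ± 0.39 in null cells. Lcp1, an actin bundler, was detected on 0 WT basal arrays (at least 3.95-fold higher in WT luminal cells) and was at 0.39 ± 0.28 in null cells. Of the genes with a negative difference, Cygb, a globin, was at 1.3 ± 0.4 in WT and -1.53 ± 0.4 in null cells. The WT call of Cygb was lost in 4 fits without 1 array (adjusted p = 0.0552 to 0.158). Brinp3 was detected on 0 WT luminal arrays (at least 3.39-fold higher in WT basal cells) and was at 0.61 ± 0.22 in null cells. For Cldn3 and Cldn4 the difference did not pass (adjusted p = 1 and 1), with null changes of -1.99 ± 0.5 and -1.83 ± 0.53.

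**Figure D5:**
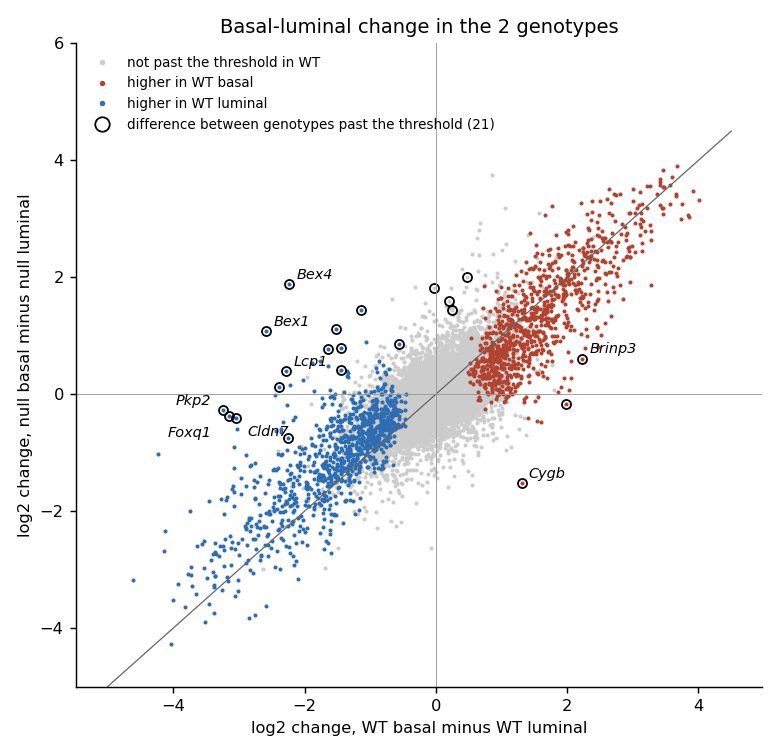
Log2 basal minus luminal change in null cells (y axis) against the same change in WT cells (x axis) for 12552 genes, from separate arrays, with the line of equal change. Red and blue points passed in WT cells, and circles mark the 21 genes whose change differed between genotypes. Bex4 and Bex1 lie on the opposite side of 0 in null cells, though Bex1 did not pass there, and Pkp2, Foxq1 and Cldn7 lie near 0.

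WT stromal cells give another reference level for the same genes. Of the 939 basal-high genes 225 had a stromal mean above both epithelial populations, 460 lay between them and 254 below both. Of the 965 luminal-high genes these counts were 91, 587 and 287. Mmp2, with stromal levels of 11.12, 12.08 and 11.16 against 9.94, 9.79 and 9.11 in basal cells, was of the first kind, as was Dcn among the luminal-high genes. Krt5, Trp63 and Irx4 had stromal means below both, with Trp63 at 4.43, 4.7 and 4.41. Krt7, at 7.02, 7.75 and 6.48 in stroma, lay between its basal and luminal means. Among the basal-high genes 96 were detected on 0 stromal arrays, and among the luminal-high genes 90.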

How the data were processed

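RNA of 24 samples was measured on Illumina bead arrays. The authors deposited scanner intensities per probe with a detection p-value, not normalized, per the file headers. The deposited series table holds quantile-normalized intensities of the same arrays and served as an alternative. Here intensities were corrected, quantile-normalized and taken to log2 with neqc (offset 16) in limma 3.58.1 (R 4.3.3). Probes with detection p below 0.05 on at least 3 of 24 arrays were kept, 17878 of 25697, and the passing probe with the highest mean stood for its gene. Of the probe names 20733 were current RefSeq symbols, 4 were set through the gene ID and 3868 through a synonym, and 1060 were kept. One mean per group was fitted over all 24 arrays. The number of arrays limits precision. Named genes were the largest changes, leading list members, their partners and genes that varied within a group. Cell type markers and the genes with the largest differences that passed between genotypes were named too. Some genes outside these rules were chosen after their values were seen. The members and gene lists were chosen with earlier results of these data known. Replicate numbers come from the labels. Deviations from the group means correlated at 0.217, 0.192 and 0.416 between same-numbered WT basal and luminal samples, and at -0.28 to 0.133 otherwise. The split of replicate 3 from the others could give these signs without pairs. Between replicates 1 and 2 the different-numbered samples correlated at 0.133 and 0.097. The numbers were taken as pairs in a blocked alternative, an assumption that these values do not settle. The block over 24 arrays also joined null unsorted samples to same-numbered sorted null samples, which correlated at just -0.086 to 0.071. The other alternatives were the background correction, scaling, filters, array weights, the arrays fitted and leaving out arrays. Some genes of the lists are counted but not reported by name here. Promoter sequences are RefSeq's (GRCm38.p6).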

Additional observations from a re-analysis of the deposited data

Results flagged for a closer look

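For 8 named genes the basal-luminal change differed between the genotypes, by the test of that difference in limma (null minus WT, adjusted over all 12552 genes). Genes with the largest differences that passed this test were named for that reason, so their passing is no separate finding. Bex4 differed by 4.11 ± 0.41 (adjusted p = 3.12e-05), Bex1 by 3.66 ± 0.53 (adjusted p = 0.003) and Lcp1 by 2.67 ± 0.39 (adjusted p = 0.00344). Among junction genes Pkp2 differed by 2.97 ± 0.39 (adjusted p = 0.00108) and Cldn7 by 2.64 ± 0.42 (adjusted p = 0.00751). Foxq1 differed by 2.79 ± 0.55 (adjusted p = 0.0387). Negative differences were found for Brinp3 (-1.62 ± 0.31, adjusted p = 0.038) and Cygb (-2.83 ± 0.57, adjusted p = 0.0424).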

How the results depend on the processing

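The 1904 genes that passed between WT basal and luminal cells numbered 1446 with median scaling, 1526 with the 6 arrays alone, 1980 without background correction, 1975 from the series table and 2760 with array weights. Replicate 3 alone gave 314, 166 higher in basal and 148 in luminal cells. Leaving out 1 array gave 1308 to 1669, with 676 to 854 higher in basal and 632 to 888 in luminal cells, the lowest luminal count (632) without WT luminal replicate 1. With the replicate number as a block, which takes the same-numbered samples as pairs, 2402 genes passed over all 24 arrays and 1955 over the 6. Among named genes the block over 24 arrays ended the call of Cldn12, added those of Rgs5, Mbp, Nrg1 and Foxi1, and changed no other. The block over the 6 arrays ended 11 calls, those of Cldn12, Jam2, Dsc2, Dvl1, Lfng, Aph1a, Lrig3, Errfi1, Nrg4, Sema4f and Plau, and added those of Mbp, Nrg1 and Sdcbp2. In null cells 2352 genes passed with array weights, 1194 higher in basal and 1158 in luminal cells, 1814 with the replicate block, and 1060 to 1235 without 1 array (597 to 687 and 449 to 548). The 21 genes that differed between genotypes became 5 with median scaling, 12 with only the arrays compared, 52 with array weights, 14 with the replicate block and 9 to 20 without 1 array. The cause of these changes was not tested. Of 180 named genes that passed, 76 passed in all 18 alternatives, 39 were lost without 1 array, 25 with replicates 1 and 2 alone and 101 with replicate 3 alone. One reversed, Clca1, at -0.11 (adjusted p = 0.902) with the mean of its probes. Over all genes, 271 passed in the same direction in every setting, 144 basal-high and 127 luminal-high. Genes near background have a change bounded by the dimmest detected signal, and 714 of the genes tested were detected on 0 of the 6 arrays.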

Other observations

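The luminal-high genes at least 4-fold apart were also divided by whether their promoter window held the E-box. The 62 with it had a median change of -2.44 in WT and -2.05 in null cells, and the 100 without it had -2.47 and -2.03. Among basal-high genes at least 4-fold apart, the 28 with it had 2.47 and 2.60, and the 130 without it had 2.47 and 2.36. WT values chose these genes, so their null values alone are free of that choice.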
